A study of Pleurotus ostreatus with 4 samples.

Results

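Sequences whose transcripts were abundant in the primordium and scarcer in both the mycelium before it and the mature fruit body after it were examined in Pleurotus ostreatus, the oyster mushroom, a basidiomycete that decays wood. Members were taken from the deposited FPKM (fragments divided by sequence length and library total) by 3 conditions: at least 5 FPKM in primordium, log2(FPKM + 1) at least 1 higher in primordium than in mycelium, and log2(FPKM + 1) at least 1 lower in mature fruit body than in primordium. Of 51131 sequences in the table, 155 met these conditions. They were divided by the young fruit body: in 45 the value there was already at least 1 log2 unit below primordium (called early-falling here), and in 110 it was not (called held).

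The study profiled the wild-type strain P739 at 4 stages, which in order of development were mycelium, primordium, the young and then the mature fruit body. There was 1 library per stage, made from RNA of whole-stage material, and how many mushrooms or cultures went into it is not stated by the sources used here. The members were chosen by their values in these same libraries and no stage had a replicate, so folds and counts are descriptions, with no test. The 95% counting intervals beside folds cover counting error only, not differences between mushrooms.

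The mycelium is the feeding network of hyphae. On induction of fruiting, hyphae gather into compact knots that grow into primordia, in which the tissues of stipe, cap and gills are laid out. Much of the later enlargement comes from the expansion of cells already present, and spores form on the gills of the mature fruit body. In whole-stage RNA, fewer cells of a type and less RNA per cell cannot be told apart.

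The identifiers name contigs within clusters or single unigenes, and the files pair none with a gene name, a function, a sequence or a position. Of them, 0 was found in RefSeq's table for the PC9 strain (11849 genes). Sequences are given by identifier and by a length recovered from the FPKM steps, no function is stated for any, and the stage labels were not checked against marker genes. Library totals recovered the same way lay between 15048631 and 15691317 fragments.

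Transient sequences were a small part of those raised in the primordium. Of the 6364 sequences with at least 5 FPKM in primordium, 1311 (20.6%) were higher there than in mycelium, 291 (4.57%) were lower in mature fruit body than in primordium, and the 155 members, 2.44%, were both. Members thus made up 11.8% of the sequences raised in primordium. Of the other 1156 raised sequences, 1064 lay within 2-fold of their primordium value at maturity and 92 were at least 2-fold higher there, on the log2(FPKM + 1) scale. Both differences in the rule use the primordium library, so a high reading in that library enlarges both. A drop in young fruit body was found in 108 sequences (1.7% of the 6364), among them 45 of the members. Among the 1311 raised sequences alone, 54 (4.12%) showed this drop.

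**Figure D1:**
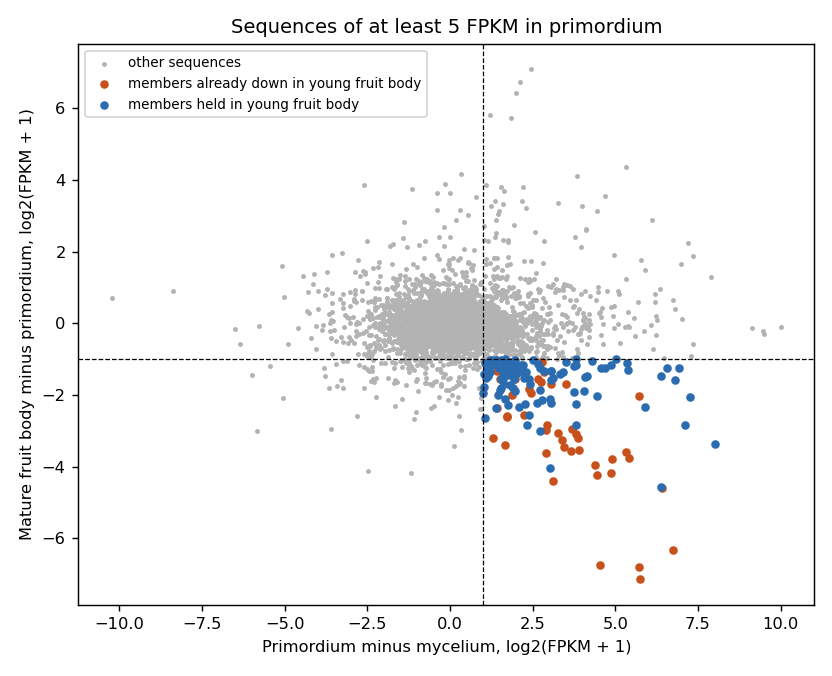
Each point is a sequence with at least 5 FPKM in primordium; the horizontal axis is primordium minus mycelium and the vertical axis mature fruit body minus primordium, both in log2(FPKM + 1), and dashed lines mark the limits of 1 log2 unit. Orange points are the 45 early-falling members, blue points the 110 held members and grey points all other sequences; the 4 lowest points are orange.

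The members took a share of the library that was largest in primordium. It was 0.861% of the fragments in mycelium (95% Wilson interval 0.856% to 0.865%), 5.15% in primordium (5.14% to 5.16%), 2.60% in young fruit body (2.59% to 2.61%) and 1.301% in mature fruit body (1.296% to 1.307%). This share was concentrated: the 5 members with most fragments held 42.0% of the members' fragments in primordium. By level, 82 members had at least 20 FPKM in primordium, 33 at least 100 FPKM and 11 at least 500 FPKM. The median FPKM was 2.29 in mycelium, 21.7 in the primordium, 12.0 in the young fruit body and 4.34 at maturity. Over all sequences with at least 5 FPKM in primordium, the medians were 18.6, 19.9, 20.3 and 20.2 FPKM in the same order of stages.

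Most peaks were modest. Peak height, taken as the smaller of the rise from mycelium and the drop to maturity in log2(FPKM + 1), had a median of 1.47 over the members. It lay between 1 and 1.5 in 78 of them, between 1.5 and 2 in 34, between 2 and 4 in 35 and at 4 or more in 8. Of these 8 highest peaks, 7 were early-falling, against 45 of all 155 members. The division favours this, since a large decline can pass the fixed limit of 1 log2 unit with a small part of it. The counting intervals of both folds lay wholly beyond 2-fold for 127 of the 155 members, and beyond equality for all 155. These intervals rest on the values by which the members were chosen, so lying beyond equality was largely set in advance.

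Neither the length nor the kind of sequence was used by the rule. The median recovered length was 1721 nt for members and 1735 nt for all sequences with at least 5 FPKM in primordium. Single unigenes made up 32.9% of the members (51 of 155) and 45.3% of those sequences. The early-falling group held 48.9% unigenes (22 of 45) and the held group 26.4% (29 of 110). These shares were not tested, since contigs of 1 cluster are not independent.

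**Figure D2:**
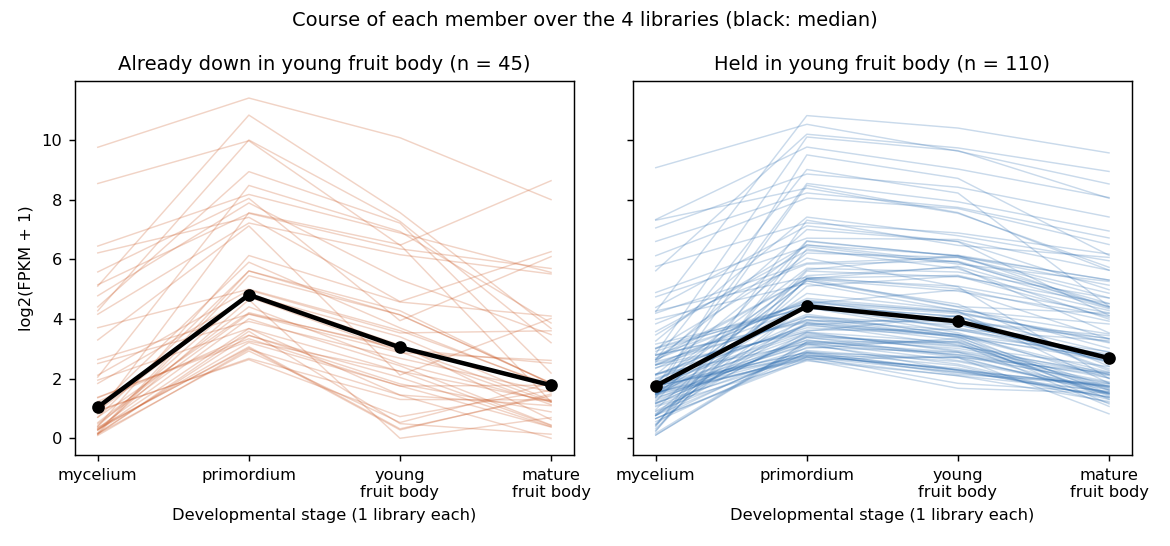
Each coloured line is 1 member, with log2(FPKM + 1) on the vertical axis and the 4 libraries in order of development on the horizontal axis; the black line joins the medians of the 45 early-falling members (left) and the 110 held members (right). The left medians drop between primordium and young fruit body, whereas the right medians fall less there and further at maturity. The division itself makes this contrast in young fruit body.

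Among the 45 early-falling sequences, the median FPKM was 1.06 in mycelium, 27.0 in the primordium, 7.26 in the young fruit body and 2.43 at maturity. In mycelium 22 of the 45 were under 1 FPKM, against 142 of the 6364 sequences and 97 of the other 1156 raised sequences. The rule requires a rise from mycelium, which favours low values there. The median log2 difference was 3.06 for primordium minus mycelium, -1.56 for young fruit body minus primordium and -2.99 for mature fruit body minus primordium. The limit of 2-fold lower in young fruit body lay inside the counting interval of 3 of the 45, and the interval lay wholly beyond it for the other 42.

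Unigene7995_All (1719 nt) had the largest peak height of the 155. It stood at 0.749 FPKM in mycelium, 188 in the primordium, 89.0 in the young fruit body and 1.33 at maturity. Primordium was 251-fold above mycelium (162 to 411) and mature fruit body was 141-fold below primordium (101 to 201), so it was nearly silent on either side of early fruiting. Its drop in young fruit body was 2.11-fold (2.01 to 2.21), just past the limit, and most of its decline came later.

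CL3068.Contig1_All and Unigene1434_All were lower by more than 6-fold in both later steps. CL3068.Contig1_All (528 nt) had 33.3 FPKM in mycelium, 1820.5 in the primordium, 188 in the young fruit body and 11.8 at maturity. It was the 16th most abundant sequence of the primordium library. It was 9.66-fold lower in young fruit body than in primordium (9.17 to 10.2), 15.9-fold lower in mature than in young fruit body (13.0 to 19.7), and 154-fold lower in mature fruit body than in primordium (126 to 190). Unigene1434_All (660 nt) had 18.3 FPKM in mycelium, 1020.4 in the primordium, 153 in the young fruit body and 8.21 at maturity, where it was 124-fold below primordium (100 to 156). Both ended below their mycelium values, by 2.81-fold (2.22 to 3.58) and 2.23-fold (1.72 to 2.92).

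CL6379.Contig1_All (2066 nt) fell further below mycelium on the log2(FPKM + 1) scale than any other member. Its FPKM was 20.1 in mycelium, 489 in the primordium, 147 in the young fruit body and 3.55 at maturity. The mature value was 138-fold below primordium (115 to 167) and 5.67-fold below mycelium (4.64 to 6.98). CL5910.Contig1_All (1647 nt) came next on the log2 scale at a much lower level, with 12.0 FPKM in mycelium, 30.9 in the primordium, 11.2 in the young fruit body and 2.44 at maturity, 4.94-fold below mycelium (3.75 to 6.58).

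CL3614.Contig3_All (1495 nt) kept some of its rise at maturity. It had 3.14 FPKM in mycelium, 355 in the primordium, 121 in the young fruit body and 13.6 at maturity. The other member of its cluster, CL3614.Contig1_All, had the same order of stages, at 0.0941, 42.7, 16.6 and 2.61 FPKM. Both members therefore stood above mycelium in all 3 fruiting libraries while declining from one to the next.

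Among the lower peaks of this group, CL2193.Contig6_All (5528 nt) had 0.326 FPKM in mycelium, 28.1 in the primordium, 7.71 in the young fruit body and 0.542 at maturity. Unigene11098_All (303 nt) had 1.06, 58.8, 12.0 and 2.31 FPKM in the same order, from 5, 268, 56 and 11 fragments. Short sequences like this one rest on few fragments outside primordium: its rise of 55.4-fold had an interval of 23.4 to 172.

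A member with no fragment at all in a later stage was found in 2 cases. Unigene10085_All (310 nt) had 1 fragment in mycelium, 112 in the primordium, 0 in the young fruit body and 3 at maturity. At the floor of 3 fragments per library it was at least 38.2-fold lower in young fruit body than in primordium. Its counting interval reached down to 30.6-fold. Unigene8747_All (941 nt), picked out after its values were seen, had 1, 98, 25 and 0 fragments in order of stage. At the same floor it was at least 34.1-fold lower in mature fruit body than in primordium.

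The most abundant early-falling sequence had a much flatter profile. Unigene2501_All (915 nt) had 862 FPKM in mycelium, 2706 in the primordium, 1076 in the young fruit body and 255 at maturity. It ranked 9th in the primordium library. Primordium was 3.14-fold above mycelium (3.08 to 3.21), and mature fruit body was 10.6-fold below primordium (10.3 to 10.99) and 3.38-fold below mycelium (3.26 to 3.51). The mycelium thus already held much of this transcript.

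**Figure D3:**
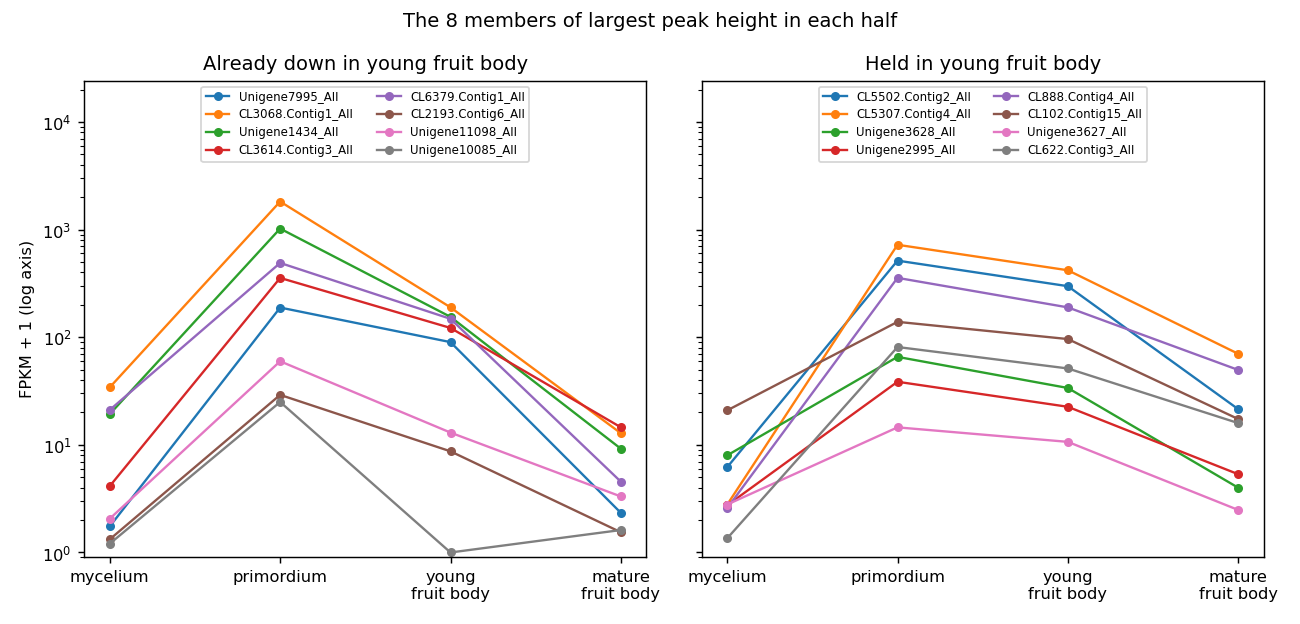
FPKM + 1 on a log axis in the 4 libraries for the 8 early-falling members (left) and the 8 held members (right) of largest peak height; each line is 1 sequence with 1 value per library. On the left, Unigene10085_All reaches 0 FPKM in young fruit body and CL3068.Contig1_All has the highest peak, at 1820.5 FPKM; on the right, CL5307.Contig4_All has the highest peak, at 722 FPKM.

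A few early-falling members came back. In mature fruit body, 7 members were at least 2-fold higher than in young fruit body on the log2(FPKM + 1) scale, all of them early-falling; over the 6364 sequences this was found in 2.14%. Their low young fruit body value is what placed them in the early-falling group, so the count is a description. CL374.Contig6_All (6253 nt) had the most fragments of any early-falling member in primordium, 94334. Its FPKM was 371 in mycelium, 1002.5 in the primordium, 87.7 in the young fruit body and 396 at maturity. The young fruit body was 11.4-fold below primordium (11.2 to 11.7), and mature fruit body was 4.51-fold above young fruit body (4.41 to 4.62), near its mycelium level.

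This dip in young fruit body was found in other contigs of the same cluster. CL374.Contig1_All, also a member, had 73.1 FPKM in mycelium, 169 in the primordium, 22.9 in the young fruit body and 75.3 at maturity. Of the 5 contigs of CL374 outside the rule, 4 were also highest in primordium and lowest in young fruit body. These contigs may share fragments, and they are no replicates. Unigene6360_All (3562 nt), outside that cluster, had 46.7, 262, 14.4 and 67.0 FPKM in order of stage, and was 4.67-fold higher in mature than in young fruit body (4.32 to 5.04).

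The share of the library taken by the early-falling group turned on CL374.Contig6_All. The 45 sequences took 0.455% of the fragments in mycelium, 1.85% in the primordium, 0.402% in the young fruit body and 0.407% at maturity. Without this contig the shares were 0.223%, 1.22%, 0.347% and 0.159%, so that the remaining 44 sequences had a smaller share at maturity than in young fruit body.

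Among the 110 held sequences, the median FPKM was 2.37 in mycelium, 20.4 in the primordium, 14.1 in the young fruit body and 5.43 at maturity. The median log2 difference was 2.07 for primordium minus mycelium, -0.46 for young fruit body minus primordium and -1.37 for mature fruit body minus primordium. Holding was mostly partial: 95 of the 110 were below their primordium value in young fruit body, and 15 were above it. Young fruit body was above primordium in 3264 of the 6364 sequences and in 670 of the other 1156 raised sequences. The rule requires a drop from primordium by maturity, so it favours a high primordium reading and thus lower values in young fruit body. The counting interval of the fold between young fruit body and primordium lay within 2-fold for 90 of the 110 and included 2-fold lower for the other 20. All 110 were lower in mature than in young fruit body, which the rule and the division together fix. In 58 of them this drop was at least 1 log2 unit, as it was in 144 (2.26%) of the 6364 sequences.

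CL5502.Contig2_All (3331 nt) had the largest peak height of the held group. Its FPKM was 5.196 in mycelium, 514 in the primordium, 297 in the young fruit body and 20.5 at maturity. Young fruit body was 1.73-fold below primordium (1.70 to 1.77), and mature fruit body was 25.1-fold below primordium (23.6 to 26.7). The transcript was thus abundant in both early fruiting libraries and scarce at maturity.

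CL5307.Contig4_All and CL888.Contig4_All were nearly absent from mycelium and kept part of their rise to the end. CL5307.Contig4_All (5019 nt) had 1.78 FPKM in mycelium, 722 in the primordium, 418 in the young fruit body and 69.1 at maturity, with primordium 405-fold above mycelium (343 to 482). CL888.Contig4_All (5367 nt) had 1.58, 355, 188 and 48.7 FPKM in order of stage, with primordium 224-fold above mycelium (189 to 268). CL622.Contig3_All (730 nt) behaved alike at a lower level, at 0.353, 80.1, 50.3 and 14.9 FPKM.

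Other high peaks of the held group ended within 2-fold of mycelium on the log2(FPKM + 1) scale, which narrows differences at this level. Unigene3628_All (1723 nt) had 6.98 FPKM in mycelium, 64.7 in the primordium, 32.7 in the young fruit body and 2.996 at maturity. As a plain ratio its mature value was 2.33-fold below mycelium (1.79 to 3.06). Its young fruit body was 1.97-fold below primordium (1.82 to 2.15), so counting error alone spans the limit between held and early-falling. Unigene2995_All (1514 nt) had 1.74, 37.6, 21.6 and 4.34 FPKM, and Unigene3627_All (1546 nt) had 1.79, 13.5, 9.66 and 1.48 FPKM, in the same order. All 3 were lower in each fruiting library than in the one before.

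The most abundant held sequences fell by differing amounts, some less and some more than the median of the held group. Unigene5419_All (3458 nt) had 17.96 FPKM in mycelium, 1801 in the primordium, 1347 in the young fruit body and 756 at maturity. It ranked 17th in the primordium library, 100-fold above mycelium (94.1 to 107), and was 2.38-fold lower in mature fruit body than in primordium (2.35 to 2.41). Unigene6796_All (2564 nt) had 6.12, 1094, 796 and 263 FPKM, and CL6463.Contig4_All (862 nt) had 47.9, 1168, 849 and 491 FPKM. These 3 stayed far above mycelium at maturity, so their course was a strong rise followed by a smaller decline. Mature minus primordium was -1.25 log2 units in Unigene5419_All and CL6463.Contig4_All and -2.05 in Unigene6796_All. The median of the held group was -1.37.

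Unigene4110_All (1823 nt) differed from them in its high starting level, with 536 FPKM in mycelium, 1470.4 in the primordium, 788 in the young fruit body and 367 at maturity. Its mature value was 4.01-fold below primordium (3.92 to 4.10) and 1.46-fold below mycelium (1.42 to 1.497). The 110 held sequences together took 0.406% of the fragments in mycelium, 3.30% in the primordium, 2.20% in the young fruit body and 0.895% at maturity. Without Unigene5419_All the shares were 0.399%, 2.68%, 1.73% and 0.633%.

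In 15 of the 110 held members the highest of the 4 values was in young fruit body rather than primordium. The highest value was also there in 1515 of the 6364 sequences and in 433 of the other 1156 raised sequences. CL6549.Contig1_All (472 nt) had 0.954 FPKM in mycelium, 49.1 in the primordium, 68.9 in the young fruit body and 20.1 at maturity. Unigene9208_All (217 nt) had 2.67, 11.02, 16.2 and 3.82 FPKM, resting on 9, 36, 54 and 13 fragments. CL6549.Contig1_All was 1.40-fold higher in young fruit body than in primordium (1.22 to 1.61). For Unigene9208_All this ratio was 1.47, with an interval of 0.944 to 2.30 that included equality.

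The pace of the decline varied within both groups. The share of the log2 decline from primordium to mature fruit body that was already present in young fruit body had a median of 35.7% over the 155 members, with quartiles of 23.0% and 51.1%. It was 52.7% in early-falling members and 28.9% in held members, a gap that the division itself makes. Over 50% of the decline was present in young fruit body in 28 of the 45 early-falling members and in 15 of the 110 held members. A value above 100%, meaning that young fruit body was below mature fruit body, was found in 11 members. The rule and the division allow it in early-falling members only. Of the 6364 sequences, 2654 had young fruit body below mature fruit body.

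The members were also compared between mature fruit body and mycelium. In 100 of the 155 members (64.5%), mature fruit body was within 2-fold of mycelium on the log2(FPKM + 1) scale, in 48 (31.0%) it was at least 2-fold higher and in 7 (4.52%) at least 2-fold lower. Over the 6364 sequences, 68.4% were within 2-fold, 19.2% were higher and 12.5% were lower in mature fruit body than in mycelium. The share of members within 2-fold was thus near that of all these sequences, but the 2 shares are not fully alike. Members had medians of 2.29 FPKM in mycelium and 4.34 at maturity, against 18.6 and 20.2 over the 6364 sequences. Adding 1 to FPKM narrows differences more at the lower level. The rule sets both libraries below primordium but does not set their order.

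In both groups most members ended within 2-fold of mycelium. Of the early-falling members, 11 were at least 2-fold above mycelium at maturity, 28 within 2-fold and 6 at least 2-fold below. Of the held members, 37 were above, 72 within and 1 below; the difference between the groups was not tested. That 1 was CL6339.Contig2_All, named after its values were seen, with 157 FPKM in mycelium, 332 in the primordium, 185 in the young fruit body and 52.1 at maturity. The 6 early-falling members that ended below mycelium had a median of 755 FPKM in primordium, against 42.7 FPKM for the 11 that ended above it. For the 28 within 2-fold it was 16.9 FPKM. On the log2(FPKM + 1) scale a sequence under 1 FPKM in mycelium, as 22 of the 45 were, cannot end 2-fold below it. The scale thus keeps scarce sequences out of the class below mycelium.

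The highest mature level relative to mycelium, on the log2(FPKM + 1) scale, belonged to CL6547.Contig1_All (1244 nt), with 0.310 FPKM in mycelium, 158 in the primordium, 87.3 in the young fruit body and 65.8 at maturity. Primordium was 508-fold above mycelium, with an interval of 233 to 1385 from only 6 fragments in mycelium. Unigene5419_All came next on that scale. In young fruit body, 110 of the 155 members (71.0%) were still at least 2-fold above mycelium, 24 of them early-falling and 86 held. Over the 6364 sequences this was found in 20.9%, but the rule required a rise in primordium of members only. Among the other 1156 raised sequences it was found in 1040 (89.97%), a larger share than among members. Those 1156 were chosen for not being 2-fold lower at maturity, so the rule bears on this gap too.

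**Figure D4:**
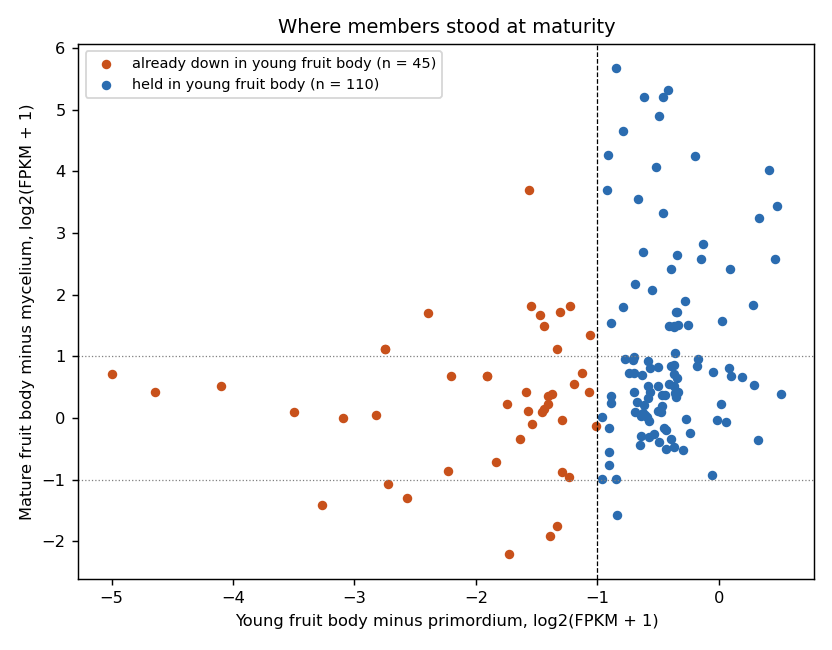
Each point is a member, with young fruit body minus primordium on the horizontal axis and mature fruit body minus mycelium on the vertical axis, both in log2(FPKM + 1); the dashed line divides the 45 early-falling members (orange) from the 110 held members (blue), and dotted lines mark 1 log2 unit above and below mycelium. Most points lie between the dotted lines (100 of 155), and all points above 4 log2 units are blue.

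The 104 member contigs came from 81 clusters, and 19 of these clusters held more than 1 member. Of the 28 pairs of members that shared a cluster, 6 of them within CL2240, 26 fell in the same group. Since 110 of the 155 members were held, many pairs would do so whatever their cluster. The sources used here do not say how a fragment that matched several contigs was assigned. CL2240.Contig3_All and CL2240.Contig4_All had equal fragment numbers in all 3 fruiting libraries, 197 in the primordium, 153 in the young fruit body and 66 at maturity, so they cannot be counted as separate observations. No other pair was equal within 2% or 1 fragment in these libraries.

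Contigs that the rule did not take give another view of the same clusters. The member clusters held 52 further contigs with at least 5 FPKM in primordium. Of these, 36 (69.2%, 95% Wilson interval 55.7% to 80.1%) had a higher value in primordium than in both mycelium and mature fruit body. The same was found in 1169 of 3324 contigs (35.2%, 33.6% to 36.8%) of clusters with no member. The median differences of the 52 contigs were 0.89 for primordium minus mycelium and -0.67 for mature fruit body minus primordium, against 0.27 and -0.03 in the other clusters. The intervals treat contigs as independent, which contigs of 1 cluster are not, and the part of shared fragments in this was not tested.

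CL2240 had the most members, 4 of the 10 contigs with at least 5 FPKM in primordium, all in the held group. CL2240.Contig9_All (1861 nt) had 0.173 FPKM in mycelium, 95.9 in the primordium, 67.9 in the young fruit body and 34.0 at maturity. CL2240.Contig7_All had 0.200, 47.7, 41.6 and 21.7 FPKM in the same order. The most abundant contig of the cluster, CL2240.Contig2_All (4282 nt), was outside the rule, at 2.04, 477, 433 and 251 FPKM, because its mature value was 0.92 log2 units below primordium. Member contigs held 21.5% of the summed primordium FPKM of CL2240, and the summed cluster did not meet the rule.

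CL102 showed contigs of 1 cluster with different courses. Its 3 members were CL102.Contig15_All (763 nt; 19.9 FPKM in mycelium, 138 in the primordium, 95.1 in the young fruit body and 16.4 at maturity), CL102.Contig17_All and CL102.Contig13_All. CL102.Contig17_All had 4.08, 24.8, 18.1 and 2.59 FPKM in order of stage, and CL102.Contig13_All had 5.95, 20.8, 15.9 and 4.01 FPKM. In contrast CL102.Contig18_All was highest in mycelium, at 84.0, 49.4, 41.6 and 46.2 FPKM, and CL102.Contig14_All was highest in young fruit body, at 4.50, 14.1, 30.05 and 15.6 FPKM.

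In CL2336 all 3 contigs were members, at low level. Their primordium values lay between 5.36 and 8.27 FPKM, and their mature values between 1.35 and 2.41 FPKM. Over all 81 clusters, the summed FPKM met the rule in 54 (13 as early-falling and 41 as held) and did not in 27. Member contigs held a median of 81.6% of the summed primordium FPKM of their cluster, over 90% of it in 32 clusters and under 50% in 20. In 17 of those 20 the summed cluster did not meet the rule. Some of these sums came close to it, such as CL2240, whose sum was 0.97 log2 units lower in mature fruit body than in primordium.

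**Figure D5:**
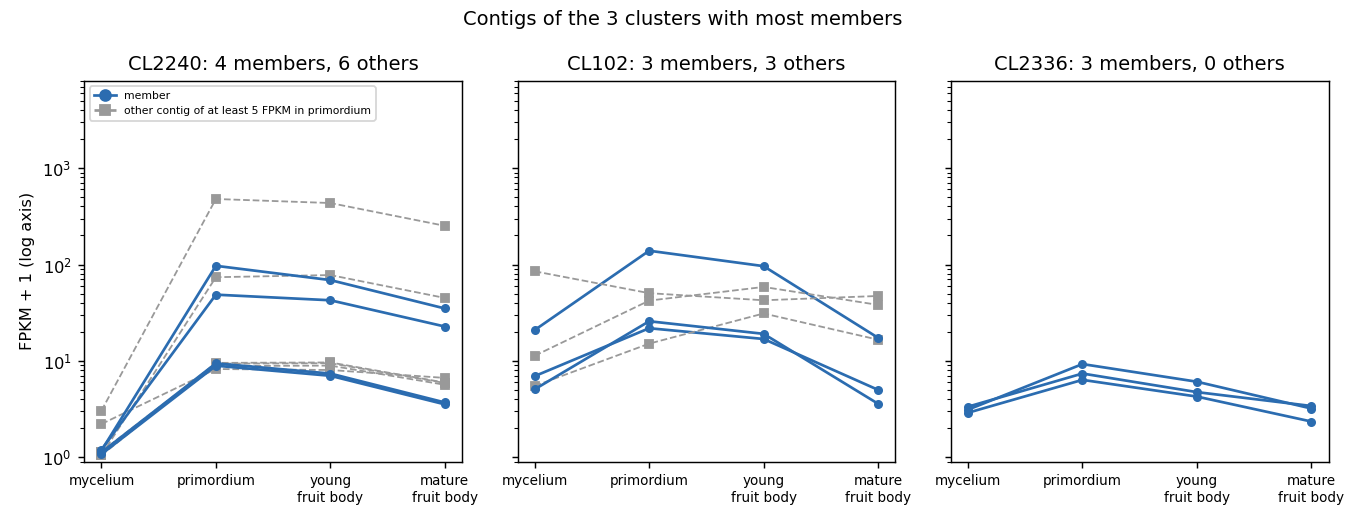
FPKM + 1 on a log axis in the 4 libraries for contigs with at least 5 FPKM in primordium of CL2240, CL102 and CL2336; blue lines are members and grey dashed lines other contigs of the cluster. In CL2240 the grey lines run near the blue ones, in CL102 some grey lines take another direction, and CL2336 has blue lines only.

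The limits of the rule cut through a continuous range. The members just inside were CL4154.Contig1_All, with 2.69 FPKM in mycelium, 51.0 in the primordium, 46.6 in the young fruit body and 24.96 at maturity, and CL3165.Contig3_All, with 2.37, 5.74, 5.50 and 0.764 FPKM. Just outside were CL1373.Contig5_All, with 10.4, 22.0, 18.2 and 10.505 FPKM, and CL5130.Contig2_All, with 3.61, 29.8, 7.73 and 14.5 FPKM. At the division between groups, Unigene355_All (1.595, 8.57, 3.76 and 1.37 FPKM) and CL4881.Contig6_All (16.8, 148, 70.1 and 44.5 FPKM) were the last early-falling members. CL4673.Contig1_All (1.82, 5.21, 2.19 and 1.85 FPKM) and Unigene3628_All were the nearest held members.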

How the data were processed

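RNA from whole-stage material of strain P739 was profiled as 1 library per stage. The authors deposited FPKM for 51131 sequences with 4 decimals, per the file headers; no source used here names the aligner, counting tool, assembly or filters. Whole fragments and lengths were recovered from the FPKM steps: ratios of library totals from sequences with equal fragments, the absolute total from the period that made lengths whole (coherence 0.874 over 8280 sequences), then the smallest length of at least 200 nt giving whole fragments in all 4 libraries. All 50567 sequences above 0 had such a length, with deposited and back-computed FPKM at most 5.1e-05 apart. A factor common to the fragments of a sequence is lost. Recovery, rule and intervals were tested on simulated data.

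The rule was applied to log2(FPKM + 1), with a pseudocount of 1, so differences of scarce sequences come out too small; the fold of a named sequence is the plain FPKM ratio. Counting intervals of ratios are exact (Clopper-Pearson, 95%), shares have 95% Wilson intervals, and the floor for a count of 0 is 3 fragments per library. Both cover counting error only.

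The members and lists were chosen with earlier results of these data known. Named sequences follow rules on peak height, primordium level, closeness to the limits, cluster membership and later course (8 of largest peak height and 4 of highest primordium FPKM in each group, then 2 or 3 per further rule, CL374.Contig1_All, CL3614.Contig1_All, Unigene8747_All and CL6339.Contig2_All having been added after their values were seen). Of 10 alternatives, effects are given in the closing section. Python 3.11.15, numpy 2.4.6, pandas 2.3.3, scipy 1.17.1 and matplotlib 3.10.9 were used.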

Additional observations from a re-analysis of the deposited data

How the results depend on the processing

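Counts are given in the order all members, early-falling, held, against 155, 45 and 110 as reported. A pseudocount of 5 gave 93, 29 and 64, no minimum gave 252, 77 and 175, a minimum of 20 FPKM gave 82, 26 and 56, and a log2 difference of 2 gave 43, 7 and 36; these settings admit fewer or more sequences by construction. Members also changed group: 18 of the 36 held at a log2 difference of 2, and 9 of the 64 at a pseudocount of 5, were early-falling as reported. In the other direction, some members held as reported became early-falling. These were 4 with upper-quartile scaling, 4 with median-of-ratios, 0 with equal column sums and 3 at a pseudocount of 0.1. Requiring counting intervals beyond 2-fold left 73 held members: 85 of the 110 had both intervals of the rule beyond 2-fold, and the others of these 85 had an interval that spanned the limit between the groups. A pseudocount of 0.1, the 3 scalings, summed clusters and the other counts under counting intervals stayed within 1.5 times. Upper-quartile scaling shifted the median of primordium minus mycelium by 0.32 log2 units over the 6364 sequences, equal column sums by 0.15 and median-of-ratios by 0.12; under all 3, the 155 members remained members, among 200, 166 and 179. Members among sequences raised in primordium were 11.8% as reported, 10.02% with at least 20 FPKM and 9.80% with upper-quartile scaling; the cause was not tested. Further contigs of member clusters higher in primordium than in both mycelium and mature fruit body were 69.2% as reported, 52.8% with no minimum (25.8% in clusters with no member) and 47.4% at a log2 difference of 2 (9 of 19 contigs, against 37.1%). The share in clusters with no member, 35.2% as reported, also moved with scaling. It was 53.8% with upper-quartile scaling (73.6% in member clusters), 46.3% with median-of-ratios (72.0%) and 39.3% with equal column sums (72.2%). With at least 20 FPKM it was 41.8% (63.2%, 12 of 19 contigs). The differences of 41 named members kept their direction in all 410 recalculations, which their choice largely fixes. Depth limits low members: 29 had under 30 fragments in mature fruit body. No paired analysis was possible because there was 1 library at every stage.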

Other observations

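The opposite course was also found. In 128 sequences, primordium was at least 1 log2 unit below both mycelium and mature fruit body, with at least 5 FPKM in the lower of these libraries. In 9 sequences, young fruit body had at least 5 FPKM and was at least 1 log2 unit above both primordium and mature fruit body. These counts rest on other minimums than those for the 155 members, and no difference between them was tested.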
